A study of Mus musculus with 16 samples.

Results

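Collagen VI is built from chains encoded by the Col6a genes, and the 5 chains described here are Col6a1, Col6a2, Col6a3, Col6a5 and Col6a6. They were picked by gene symbol out of 22372 protein-coding genes in the table, with the aim of setting the chain that fell with aortic constriction, Col6a6, beside the others. That choice used the values of TAC-Veh and Sham-Veh, so in this comparison the levels of the chains are a description and carry no test. The sixth mouse chain gene, Col6a4, was kept as a gene outside the set.

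RNA was sequenced from pieces of heart ventricle of 16 C57BL/6J mice that were 10 to 12 weeks old at the start. Transverse aortic constriction (TAC), a suture around the aortic arch that puts the left ventricle under pressure overload, was set against sham surgery, which lacked only the constriction. THZ1, a covalent inhibitor of the transcription kinases CDK7, CDK12 and CDK13, was set against vehicle. Each of the 4 groups held 4 mice, Sham-Veh and TAC-Veh on vehicle and Sham-THZ1 and TAC-THZ1 on the drug, and both THZ1 groups received 10 mg/kg b.i.d. by intraperitoneal injection from day 1 to day 60 after surgery. The labels name no transgene or deletion, and all mice shared the thoracotomy and anaesthesia.

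Collagen VI is a matrix protein of connective tissue that forms beaded microfilaments close to cells and basement membranes. The chains encoded by Col6a1 and Col6a2 join with that of Col6a3 into a triple-helical monomer, which is assembled into larger units inside the cell before secretion. The chains encoded by Col6a4, Col6a5 and Col6a6 resemble that of Col6a3 and are thought to take its place in some monomers. Fibroblasts are known as the main source of collagen VI in the heart, and inherited defects of COL6A1, COL6A2 or COL6A3 cause muscle weakness with contractures.

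The libraries held 21.4 to 35.8 M (mega) reads in protein-coding genes, with a median of 28.2 M. The values are normalized counts, which are reads per gene divided by a size factor of the library, and 13331 genes passed the filter of at least 10 normalized counts in at least 4 libraries. A gene was called at an adjusted p under 0.05 by limma with Benjamini-Hochberg adjustment over these genes. As a check of the tissue label, the cardiomyocyte gene Myh6 had group means of 225634 to 501809 normalized counts. Of 4 atrial markers, Myl7 and Sln were near 0, with group means of 0.265 to 2.33 and 0.247 to 1.01, and Myl4 was low, at 31.3 to 48.5. The group means of Nppa, a gene that ventricles under load are also known to express, ran from 3090 to 103973.

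Col6a1 lies at chr10:76171537-76188913 and Col6a2 at chr10:76058507-76086375 of the mouse build NCBIM37, both on the minus strand, 85.2 kb apart with 0 other genes of the table between them. Col6a3 lies at chr1:92663435-92740529, also on the minus strand. Col6a6 lies at chr9:105591747-105730415 and Col6a5 at chr9:105758400-105862974, again on the minus strand, 28.0 kb apart and followed by Col6a4 after a further 28.8 kb. Within this row of 3 neighbours, Col6a6 alone passed the filter on low values.

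The coding sequences differ between the chains. Runs of triplets split by an interruption were counted apart here, so the counts below are not the length of the whole helix. A collagen helix needs a glycine at the head of every triplet of residues, and the longest unbroken run of such triplets was 87 in Col6a1, 87 in Col6a2, 45 in Col6a3, 42 in Col6a6 and 37 in Col6a5, counted in the transcript with the longest coding sequence. The chains of Col6a1 and Col6a2 were 1025 and 1034 codons long, against 2657 for Col6a3, 2265 for Col6a6 and 2639 for Col6a5. The opening 90 bases of that run are printed for the 4 chains with enough reads to test, as coding sequence of the GENCODE transcripts, with the glycine codon (GGN) at the head of each triplet in capitals and all other codons in lower case. They are read from exons 8 and 9 of 35 in Col6a1 (chr10:76182368-76183741), exons 5 and 6 of 28 in Col6a2 (chr10:76074693-76076035), exons 19 and 20 of 43 in Col6a3 (chr1:92688501-92689022) and exons 12 and 13 of 37 in Col6a6 (chr9:105662390-105663798).
Col6a1: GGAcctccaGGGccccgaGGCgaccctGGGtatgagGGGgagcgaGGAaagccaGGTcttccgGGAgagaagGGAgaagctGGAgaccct
Col6a2: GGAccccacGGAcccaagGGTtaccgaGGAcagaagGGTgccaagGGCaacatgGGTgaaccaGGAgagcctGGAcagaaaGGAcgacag
Col6a3: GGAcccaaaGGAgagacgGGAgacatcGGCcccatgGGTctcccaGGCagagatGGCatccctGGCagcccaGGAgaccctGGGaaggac
Col6a6: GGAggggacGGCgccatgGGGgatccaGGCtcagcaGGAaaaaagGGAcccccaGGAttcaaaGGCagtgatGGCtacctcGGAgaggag
Each stretch repeats the glycine codon at every ninth base, and the codons between them differ from chain to chain. Of all 40-base windows of each transcript, the length of the reads, 345 were shared between Col6a6 and Col6a5, which is 4.89% of the windows of Col6a6 and 3.73% of those of Col6a5. Reads from these windows fit both genes, so the counts of this pair are uncertain to that extent. Col6a1, Col6a2 and Col6a3 shared 0 windows with any other gene.

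The chains spanned a wide range of levels. Per kilobase of transcript, the Sham-Veh level was 670 ± 63.1 normalized counts for Col6a2, 660 ± 39.3 for Col6a1, 137 ± 17.1 for Col6a3, 32.9 ± 3.90 for Col6a6 and 0.131 ± 0.0973 for Col6a5 (SD, n = 4). Col6a1 and Col6a2 did not differ beyond their spread, and every other step in this order was larger than the spread between mice. With the merged exons of all transcripts as the length, the level of Col6a2 was 318 per kilobase and that of Col6a1 616, so their order depends on which Col6a2 transcripts the heart uses.

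Col6a1 encodes a short chain of the monomer. Its normalized counts were 2806, 2476, 2707 and 2829 in the 4 Sham-Veh mice and 2705, 2747, 2694 and 3026 in the 4 Sham-THZ1 mice. They were 3916, 6104, 3447 and 4759 in TAC-Veh and 1863, 1916, 2090 and 2279 in TAC-THZ1. All TAC-Veh mice lay above all sham mice, and all TAC-THZ1 mice lay below them.

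Col6a2 encodes the other short chain, and its counts were nearly those of Col6a1 in each mouse. The sham mice had 2821, 2300, 2624 and 2834 in Sham-Veh and 2566, 2671, 2468 and 3000 in Sham-THZ1. The constricted mice had 3709, 6028, 3353 and 5129 under vehicle and 1670, 1703, 2176 and 2192 under THZ1. The groups were ordered as for Col6a1, again without overlap between TAC-THZ1 or TAC-Veh and the sham groups. In both genes TAC-Veh replicate 2 was the highest library and replicate 3 the lowest of its group.

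Col6a3 encodes the long chain that completes the common monomer. The sham mice had 1360, 1016, 1276 and 1158 normalized counts in Sham-Veh and 1090, 1054, 1089 and 1143 in Sham-THZ1. The constricted mice had 755, 1488, 988 and 1825 under vehicle and 749, 628, 913 and 772 under THZ1. The TAC-Veh mice spread on both sides of the sham mice, with replicates 2 and 4 above them all and replicates 1 and 3 below them all. The TAC-THZ1 mice lay below all sham mice and overlapped with TAC-Veh.

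Col6a6 encodes a long chain of the Col6a3 kind. The sham mice had 240, 261, 238 and 195 normalized counts in Sham-Veh and 196, 190, 184 and 158 in Sham-THZ1. The constricted mice had 14.1, 11.4, 40.6 and 67.3 under vehicle and 64.4, 121, 76.5 and 71.3 under THZ1. The TAC-Veh counts rested on 12, 16, 41 and 79 reads. Every TAC mouse lay below every sham mouse, and TAC-Veh overlapped with TAC-THZ1 through its replicate 4 alone.

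Col6a5 was close to absent. Between 0 and 9 reads were found per library, which adds up to 5 reads for Sham-Veh and 10 for Sham-THZ1, and to 19 for TAC-Veh and 15 for TAC-THZ1. It did not pass the filter on low values, so 4 of the 5 chains were tested. Without the filter its adjusted p by limma was 0.758 to 1 over the 3 comparisons other than the one that chose the chains, and at this depth no difference was detectable in them. Col6a4 was lower still, with group means of 0 to 0.451 normalized counts.

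**Figure D1:**
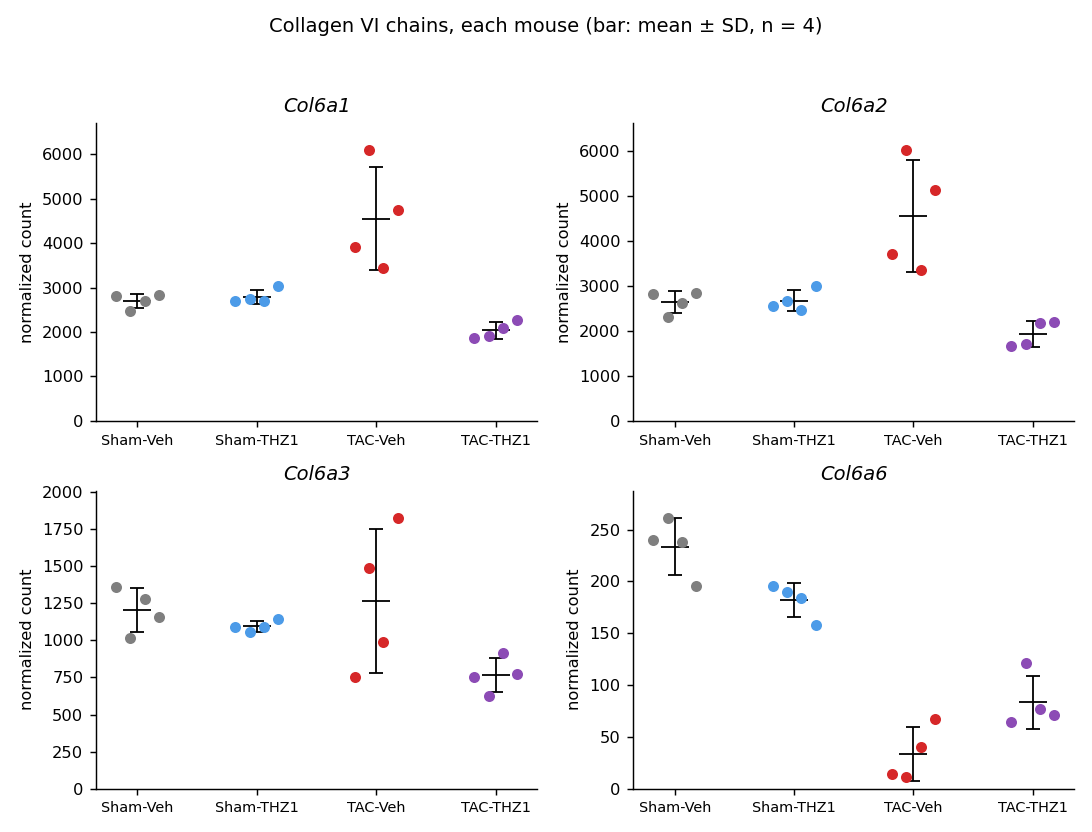
Normalized count of Col6a1, Col6a2, Col6a3 and Col6a6 (vertical axis, from 0, with its own scale in each panel) in each of the 16 mice, by group; points are mice and the black bars are mean ± SD of 4. Col6a1 and Col6a2 stand highest in TAC-Veh and lowest in TAC-THZ1, Col6a3 is spread in TAC-Veh from 755 to 1825, and Col6a6 is at 121 or less in every TAC mouse and at 158 or more in every sham mouse.

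Under vehicle, TAC set the chains apart. TAC-Veh stood above Sham-Veh by 0.72 for Col6a1 (SE 0.13) and by 0.75 for Col6a2 (SE 0.15) in units of log2(normalized count + 1), or 1.65-fold and 1.68-fold. The difference for Col6a3 was -0.00 (SE 0.20). Col6a6 stood 3.11 lower (TAC-Veh minus Sham-Veh -3.11, SE 0.39), which is 8.63-fold on that scale and 7.00-fold as a ratio of group means. This is the comparison that chose the chains, so no test is given. Over all 13331 genes 21.4% were called higher and 23.6% lower, and nothing is read from the chains against those shares.

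Under THZ1, TAC could be tested on group means that had no part in the comparison that chose the chains. The estimate of the spread came from all groups, including those of that comparison. All 4 chains were lower in TAC-THZ1 than in Sham-THZ1, and 3 of the 4 passed the test. Col6a1 fell by 0.46 (SE 0.13, adjusted p by limma 0.0170), Col6a2 by 0.48 (SE 0.15, adjusted p by limma 0.0322) and Col6a6 by 1.16 (SE 0.39, adjusted p by limma 0.0393). Col6a3 differed by -0.53 (SE 0.20, adjusted p by limma 0.0625), with a 95% interval of -0.94 to -0.11 before adjustment. Its groups did not overlap. How many of all genes separate in this way was not counted, so overlaps here and elsewhere are a description. In this comparison 11.4% of all genes were called higher and 12.8% lower.

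These calls lay near the threshold. The call of Col6a6 was lost when any 1 library of the comparison but TAC-THZ1 replicate 2 was left out, with log2 differences of -1.35 to -1.05 and adjusted p of 0.0268 to 0.102 by limma, and it also ended without the filter, with the replicate block, with DESeq2 and on 14 libraries. The call of Col6a2 ended in 5 of 8 leave-outs (Sham-THZ1 replicates 1, 2 and 4 and TAC-THZ1 replicates 1 and 2; differences over all 8 -0.54 to -0.41, highest adjusted p by limma 0.0982), and that of Col6a1 in 2 (Sham-THZ1 replicate 4, -0.42, and TAC-THZ1 replicate 1, -0.42). The test passed for Col6a3 when the 2 groups were fitted alone or libraries were weighted (adjusted p by limma 0.00198 and 0.00298).

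With THZ1 in constricted hearts, 3 chains fell. TAC-THZ1 was lower than TAC-Veh for Col6a1 (TAC-THZ1 minus TAC-Veh -1.13 on the log2 scale, SE 0.13, adjusted p by limma 4.30e-05) and for Col6a2 (-1.21, SE 0.15, adjusted p by limma 8.00e-05). These are 2.19-fold and 2.31-fold decreases, with every TAC-THZ1 mouse below every TAC-Veh mouse. Col6a3 fell by 0.65 (SE 0.20, adjusted p by limma 0.0209), with overlapping groups. The difference for Col6a6 was 1.60 (SE 0.39), which is 3.02-fold, with overlapping groups.

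This comparison shares the TAC-Veh libraries with the one that chose the chains, and Col6a6 was picked as low in them, so its difference is a description with no test. The tests of the other chains share these libraries too, so they are not independent of that choice. Over all genes 15.1% were called higher and 14.2% lower. The call of Col6a3 ended without TAC-Veh replicate 2 (-0.55), TAC-Veh replicate 4 (-0.45) or TAC-THZ1 replicate 2 (-0.56), and, with the 2 groups fitted alone, its adjusted p by limma was 0.111. The calls of Col6a1 and Col6a2 held in each leave-out, with adjusted p by limma of at most 0.000269 and 0.000481.

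In sham hearts Col6a1, Col6a2 and Col6a3 did not pass the test for THZ1. The Sham-THZ1 minus Sham-Veh difference was 0.05 for Col6a1 (95% interval -0.22 to 0.31), 0.02 for Col6a2 (-0.30 to 0.34) and -0.13 for Col6a3 (-0.55 to 0.29). For Col6a6 it was -0.35 (SE 0.39). The adjusted p by limma was 0.969 to 0.998 for the first 3, and none is given for Col6a6, which was picked with the Sham-Veh values in view. The tests of the first 3 share the Sham-Veh libraries with the comparison that chose the chains, so they are not independent of that choice. The Col6a6 mean was 182 ± 16.6 normalized counts in Sham-THZ1 and 234 ± 27.7 in Sham-Veh (SD, n = 4), and the ranges overlapped by a single pair of mice. Of all genes 0.0225% were called higher and 0.045% lower here.

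**Figure D2:**
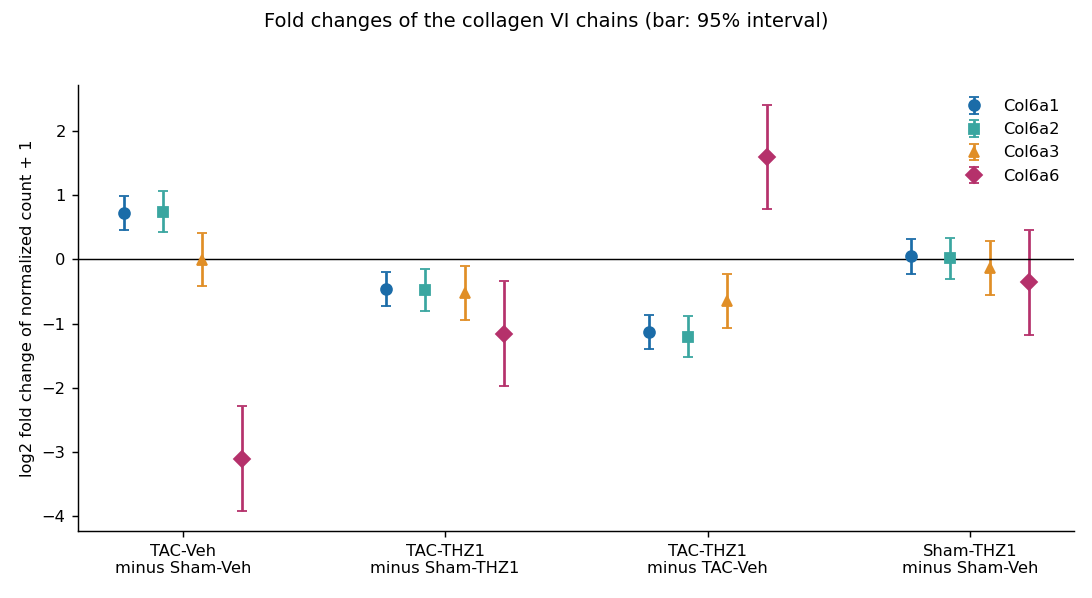
Log2 fold change of the normalized count + 1 (vertical axis) of Col6a1, Col6a2, Col6a3 and Col6a6 in the 4 comparisons, with 95% intervals from limma over 16 libraries. The intervals for TAC-Veh minus Sham-Veh, and those of Col6a6 for THZ1 against vehicle, hold values that chose the chains and are no test. Under vehicle Col6a1 and Col6a2 lie at 0.72 and 0.75 and Col6a6 at -3.11, under THZ1 all 4 lie below 0, and for TAC-THZ1 minus TAC-Veh Col6a6 alone lies above 0.

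The make-up of the set was followed as ratios of levels per kilobase within each mouse. Col6a1 was 98.8 ± 3.67% of Col6a2 in Sham-Veh and 101 ± 3.44% in Sham-THZ1, and 96.9 ± 5.30% for TAC-Veh and 102 ± 7.39% for TAC-THZ1 (SD, n = 4). The ratio of the raw normalized counts ran from 0.928 to 1.12 over the 16 mice. The ratio stayed between 89.4 and 108% in every mouse, while the normalized count of Col6a1 ran from 1863 to 6104.

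Col6a3 did not follow in proportion. It was 20.8 ± 1.86% of Col6a1 in Sham-Veh and 18.3 ± 0.630% in Sham-THZ1, and 12.9 ± 3.78% for TAC-Veh and 17.6 ± 2.44% for TAC-THZ1 (SD, n = 4). All TAC-Veh mice but 1, at 17.9%, lay below the lowest TAC-THZ1 mouse, at 15.3%.

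The share of Col6a6 beside Col6a3, the chain it resembles, was lowest in TAC-Veh. It was 24.3 ± 5.04% of Col6a3 per kilobase in Sham-Veh and 20.6 ± 2.43% in Sham-THZ1, and 3.22 ± 1.93% for TAC-Veh and 14.04 ± 6.52% for TAC-THZ1 (SD, n = 4). The highest TAC-Veh mouse stood at 5.08% and the lowest TAC-THZ1 mouse at 10.3%, so the ratio separated groups that overlapped in both counts. The TAC-THZ1 mean rested partly on replicate 2, at 23.8%, beside 10.3 to 11.4% in the other mice. No test is given for these ratios, because they hold the values that chose the chains.

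**Figure D3:**
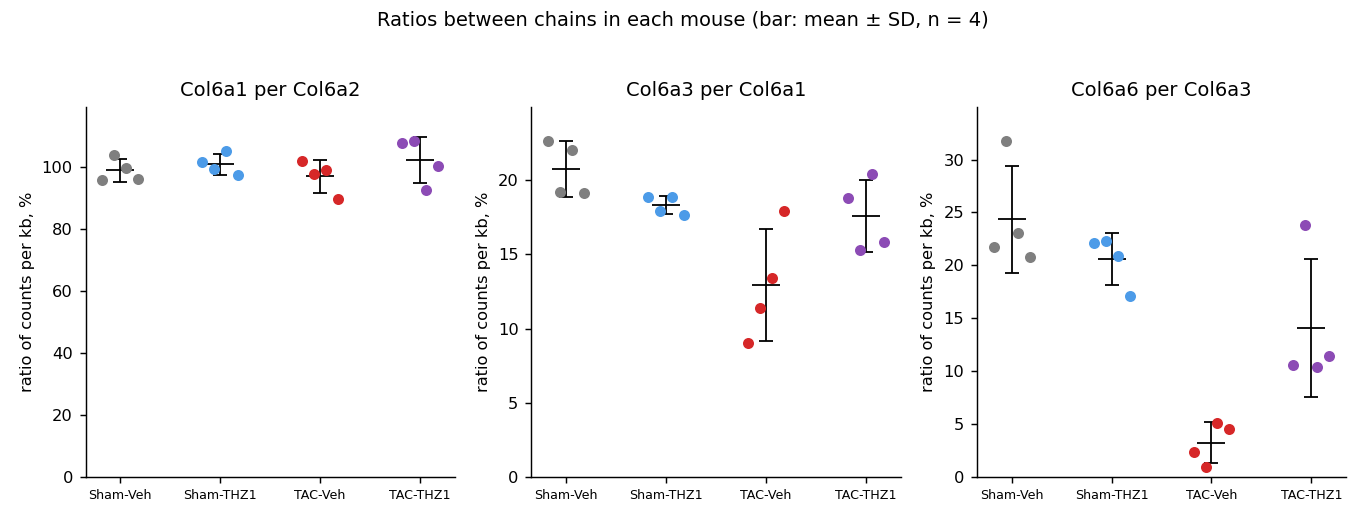
Ratio of levels per kilobase in percent (vertical axis, from 0) of Col6a1 to Col6a2, Col6a3 to Col6a1 and Col6a6 to Col6a3 in each of the 16 mice, by group; points are mice and bars are mean ± SD of 4. Col6a1 to Col6a2 lies between 89.4 and 108% in every mouse, whereas Col6a6 to Col6a3 lies at 5.08% or less in TAC-Veh and at 10.3% or more in all other mice.

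Across the 16 mice, Pearson's r of log2 values was 0.99 between Col6a1 and Col6a2, 0.67 between Col6a1 and Col6a3, 0.11 between Col6a3 and Col6a6 and -0.57 between Col6a1 and Col6a6. After the group means were removed, these became 0.96, 0.66, 0.26 and -0.37. Points share their group and library, and the values are a description.

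The genes most like Col6a6 over the 16 mice, out of 10313 genes averaging 100 normalized counts or more, were Tmem65 (r = 0.987), Camk2a (r = 0.986), Asb15 (r = 0.986), Abcc9 (r = 0.984) and Rbfox1 (r = 0.983). Camk2a encodes a subunit of a calcium/calmodulin-dependent kinase, Abcc9 a subunit of potassium channels gated by ATP, and Rbfox1 a splicing regulator. TAC-Veh means were 31.3% of the Sham-Veh mean for Asb15, 30.7% for Rbfox1, 39.7% for Camk2a, 43.0% for Abcc9 and 56.1% for Tmem65, beside 14.3% for Col6a6. TAC-THZ1 means lay between 53.0% and 74.9% for these 5 genes and at 35.7% for Col6a6. The ranking holds the TAC-Veh values that chose Col6a6, so it and these percentages are a description. After the group means were removed, r with Col6a6 was 0.920 (Rbfox1) to 0.946 (Asb15). These values still hold the spread of Col6a6 among the TAC-Veh mice, from 11.4 to 67.3 normalized counts, and are a description too.

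The genes most like Col6a3 were Myo1e (r = 0.918), Itga6 (r = 0.917), Fscn1 (r = 0.911), St3gal2 (r = 0.901) and Tek (r = 0.901). Myo1e encodes an unconventional myosin, Itga6 an integrin subunit that binds laminin, Fscn1 an actin-bundling protein and Tek a receptor of endothelial cells. Their TAC-Veh means were 98.6 to 111% of the Sham-Veh means and their TAC-THZ1 means 71.3 to 84.4%, beside 105% and 63.7% for Col6a3. No gene was shared between the lists of 5.

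**Figure D4:**
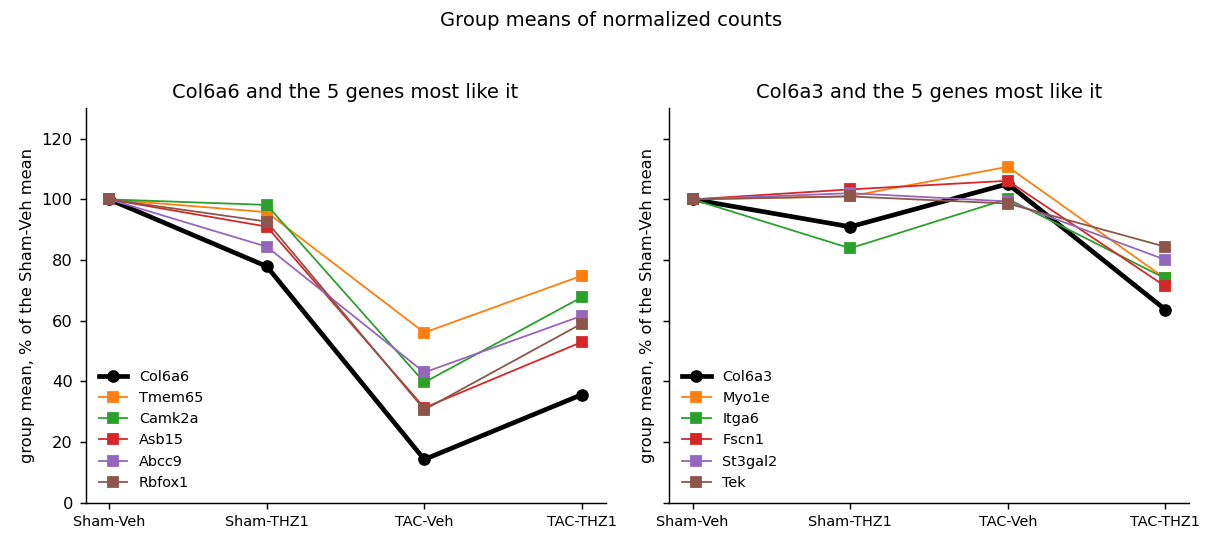
Group mean of normalized counts as a percent of the Sham-Veh mean (vertical axis, from 0) over the 4 groups for Col6a6 and the 5 genes most like it (left) and Col6a3 and the 5 genes most like it (right); n = 4 mice per mean and lines join groups of 1 gene. The left set is lowest in TAC-Veh, down to 14.3% for Col6a6, and the right set is lowest in TAC-THZ1, down to 63.7% for Col6a3.

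The receptors that bind collagen VI at the cell surface were given by a list of 9 genes, of which 8 passed the filter. With TAC under vehicle 3 rose and 2 fell, beside 21.4% and 23.6% of all genes. With TAC under THZ1 0 rose and 3 fell, beside 11.4% and 12.8%. With THZ1 in TAC 1 rose and 5 fell, beside 15.1% and 14.2%. The median difference of the list for THZ1 in TAC was -0.46, beside 0.01 over all genes. In sham hearts 0 of 8 were called for THZ1 by limma.

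Antxr1 and Antxr2 encode anthrax toxin receptors that bind collagen VI and take part in its turnover, and they differed in direction. Antxr2, the second most abundant gene of this list per kilobase, fell with TAC under vehicle (-0.75, adjusted p by limma 1.27e-06) and was higher in TAC-THZ1 than in TAC-Veh (0.41, adjusted p by limma 0.000785). Antxr1 rose with TAC (0.70, adjusted p by limma 0.000605) and fell with THZ1 in TAC (-0.78, adjusted p by limma 0.000748). Both comparisons hold the TAC-Veh libraries.

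Among the integrins, Itgb1, the common beta subunit and the most abundant receptor gene of the list, rose with TAC (0.28, adjusted p by limma 0.00913) and fell with THZ1 in TAC (-0.56, adjusted p by limma 0.000198). Itga11, a collagen-binding alpha subunit of fibroblasts, rose with TAC (1.08, adjusted p by limma 0.000320) and fell with THZ1 in TAC (-1.27, adjusted p by limma 0.000304). Itga1, another collagen-binding subunit, fell with THZ1 in TAC (-0.56, adjusted p by limma 0.0110). With the 2 groups fitted alone, the calls of Itgb1 with TAC and of Itga1 ended (adjusted p by limma 0.0595 and 0.0791).

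With TAC under THZ1, Cspg4, the NG2 proteoglycan of pericytes that binds collagen VI, fell by 0.49 (adjusted p by limma 0.0174), Itga3 by 0.36 (adjusted p by limma 0.0329) and Itgb1 by 0.26 (adjusted p by limma 0.0254). The call of Itga3 ended in 6 of 8 leave-outs (highest adjusted p by limma 0.103) and in 3 of 13 other settings, that of Itgb1 in 5 (0.0700) and that of Cspg4 in 1, without TAC-THZ1 replicate 1 (0.0513).

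The matrix partners, 11 genes whose products bind collagen VI or lie beside it in basement membranes, all passed the filter. With TAC under vehicle 8 rose and 2 fell, beside 21.4% and 23.6% of all genes. With TAC under THZ1 2 rose and 4 fell, beside 11.4% and 12.8%. With THZ1 in TAC 0 rose and 8 fell, beside 15.1% and 14.2% (median -0.56, and 0.01 over all genes). Biglycan (Bgn) and decorin (Dcn), small proteoglycans that bind collagen VI, were the most abundant of the list per kilobase.

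Bgn had means of 5883 ± 485 normalized counts in Sham-Veh and 28627 ± 8500 in TAC-Veh, and it rose with TAC both under vehicle (2.24, adjusted p by limma 1.24e-07) and under THZ1 (0.84, adjusted p by limma 0.00327). Dcn did so too (1.07 and 0.52, adjusted p by limma 4.25e-06 and 0.00637). With THZ1 in TAC, Bgn fell by 1.46 (adjusted p by limma 5.19e-05) and Dcn by 0.56 (adjusted p by limma 0.00273), the call of Dcn ending with the 2 groups fitted alone (adjusted p by limma 0.0521). Under THZ1 these partners thus rose with TAC while Col6a1 and Col6a2 fell.

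Fibronectin (Fn1), an adhesive matrix protein, rose with TAC under vehicle (1.31, adjusted p by limma 0.00151) and fell with THZ1 in TAC (-1.66, adjusted p by limma 0.000650). The basement membrane collagens Col4a1 and Col4a2 fell with TAC under THZ1 by 1.07 and 1.01 (adjusted p by limma 0.00118 and 0.00102) and with THZ1 in TAC by 1.31 and 1.14 (adjusted p by limma 0.000136 and 0.000198). Hspg2, which encodes the proteoglycan perlecan, fell with TAC under THZ1 by 1.12 (adjusted p by limma 0.00138). For TAC under vehicle, the calls of Col4a1 (0.55) and Col4a2 (0.43) as higher and of Hspg2 (-0.49) as lower ended in 4, 6 and 6 of 8 leave-outs, with adjusted p by limma of up to 0.0631, 0.126 and 0.159, and that of Hspg2 also in 9 of 13 other settings.

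The enzymes and chaperones that make and trim collagen chains were given by 15 genes, and all passed the filter. With TAC under vehicle 12 rose and 1 fell, beside 21.4% and 23.6% of all genes. With TAC under THZ1 2 rose and 4 fell, beside 11.4% and 12.8%. With THZ1 in TAC 0 rose and 13 fell, beside 15.1% and 14.2% (median -0.41, and 0.01 over all genes). The prolyl hydroxylase subunit P4ha1 rose with TAC under vehicle by 1.01 and under THZ1 by 0.47 (adjusted p by limma 2.28e-05 and 0.0204) and fell with THZ1 in TAC by 0.67 (adjusted p by limma 0.00194). Its call under THZ1 ended in 4 of 8 leave-outs (highest adjusted p by limma 0.0710).

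The rare subunit P4ha3 had means of 1.75 normalized counts in Sham-Veh, 30.8 in TAC-Veh and 4.39 in TAC-THZ1. It passed the filter only through TAC-Veh, so its difference for THZ1 in TAC (-2.49) is a description with no test. The counts of called genes in this list include it. The lysyl hydroxylase Plod2 fell with THZ1 in TAC by 0.95 (adjusted p by limma 0.000391). The abundant collagen chaperone Serpinh1 (-0.58, adjusted p by limma 0.0115) and the isomerase P4hb (-0.41, adjusted p by limma 0.00114) fell there as well, and the call of Serpinh1 ended with the 2 groups fitted alone (adjusted p by limma 0.0848).

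The processing proteases gave a mixed picture. Mmp14, a membrane-bound metalloprotease, fell with THZ1 in TAC by 0.93 (adjusted p by limma 0.00229) and with TAC under THZ1 by 0.60 (adjusted p by limma 0.0338), the latter call ending in 5 of 8 leave-outs (highest adjusted p by limma 0.108). Furin, a proprotein convertase, fell with TAC under THZ1 by 0.57 (adjusted p by limma 0.000686) and differed by 0.05 for THZ1 in TAC (adjusted p by limma 0.675). All these lists were chosen with earlier results of these data known, and their counts describe them.

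**Figure D5:**
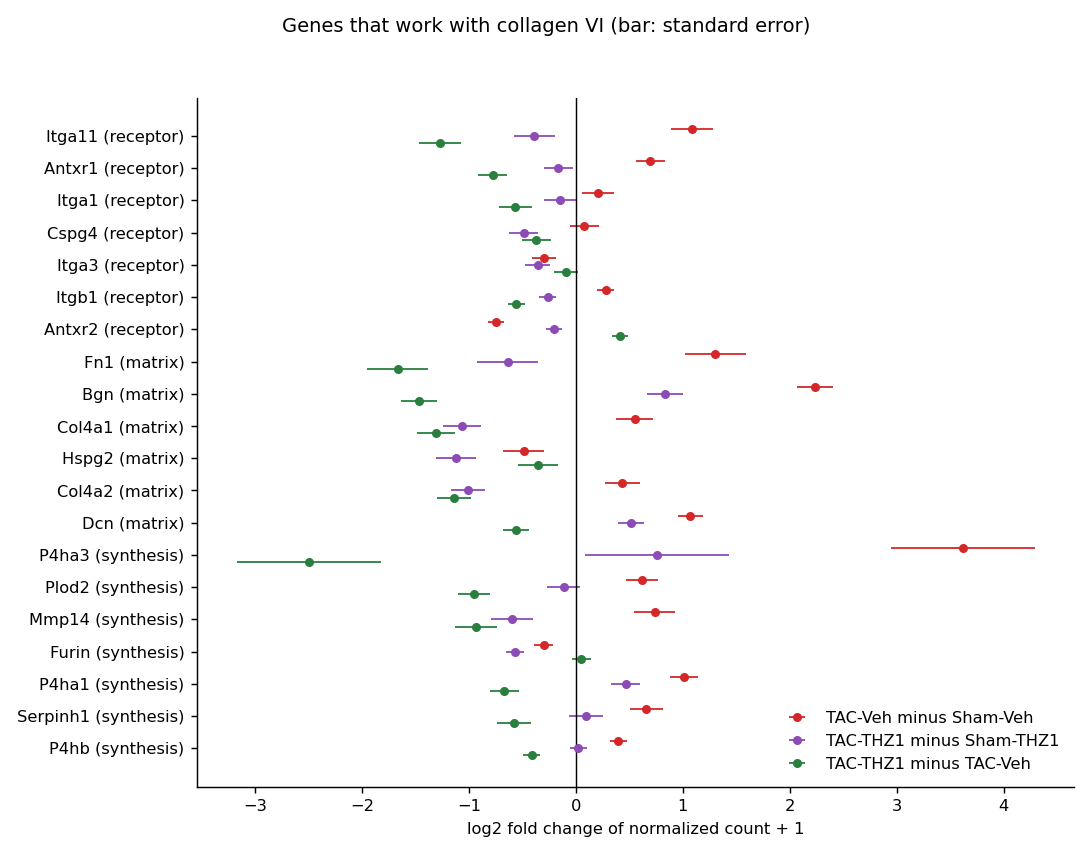
Log2 fold change of the normalized count + 1 (horizontal axis) with its standard error for the 20 named receptor, matrix and synthesis genes that passed the filter, in TAC-Veh minus Sham-Veh, TAC-THZ1 minus Sham-THZ1 and TAC-THZ1 minus TAC-Veh. Bgn, Dcn, P4ha1, P4ha3, Serpinh1 and P4hb lie above 0 for TAC under both treatments, though not all of them passed the test, and Antxr2 and Furin alone lie above 0 for TAC-THZ1 minus TAC-Veh, at 0.41 and 0.05.

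The tissue is a mixture of cell types, and in such bulk samples fewer cells of a type and less RNA per cell cannot be told apart. The summed normalized counts of 8 fibroblast markers ran from 45227 to 50635 in Sham-Veh and 47506 to 50395 in Sham-THZ1, and 58211 to 82965 for TAC-Veh and 42777 to 55443 for TAC-THZ1. Of these 8, 4 rose with TAC under vehicle, beside 21.4% of all genes. With TAC under THZ1 0 rose and 1, Col1a1, fell, beside 11.4% and 12.8%. With THZ1 in TAC 4 fell, beside 14.2%. Pdgfra, Tcf21 and Gsn were not called in any of these. Gsn had group means of 33036 to 34553 normalized counts and made up most of the sham sums. Dpt rose with TAC under vehicle (0.49, adjusted p by limma 0.00152), Ddr2 fell with THZ1 in TAC (-0.40, adjusted p by limma 0.00703), and so did the fibrillar collagens Col1a1 and Col3a1 (-1.76 and -2.01, adjusted p by limma 0.000113 and 5.48e-05).

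The 5 activated fibroblast markers summed to 3050 to 4007 in Sham-Veh and 3301 to 4090 in Sham-THZ1, and 23866 to 75496 for TAC-Veh and 3624 to 9261 for TAC-THZ1. Of them 4 rose with TAC under vehicle and 3 under THZ1, where Col6a1 and Col6a2 fell. Cthrc1 is in both counts, but with means of 3.17 in Sham-Veh and 2.05 in Sham-THZ1 it passed the filter only through TAC groups. Its part in these counts is therefore a description with no test. The shares of all genes called higher were 21.4% and 11.4%. Postn, a matricellular gene of these cells, rose by 1.60 with TAC under THZ1 (adjusted p by limma 0.00449). Its mean was 1348 normalized counts in Sham-Veh and 38153 in TAC-Veh, so the TAC-Veh sums are mostly those of Postn. The part of these cells in the changes of the chains was not tested.

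Beside Col6a6, 3 of 8 cardiomyocyte markers fell with TAC under vehicle, namely Myh6, Tnni3 and Ryr2. The share of all genes called lower was 23.6%. The 8 cardiomyocyte markers summed to 1340062 to 1425813 in Sham-Veh and 1369211 to 1426639 in Sham-THZ1, and 746044 to 1077097 for TAC-Veh and 1180559 to 1476868 for TAC-THZ1. These sums follow the most abundant genes, and the mean of Myh6 went from 501105 in Sham-Veh to 225634 in TAC-Veh. The other 5 markers, Actn2 and Actc1 among them, were not called with TAC under vehicle. No marker of this list was at 0 in all libraries, and the part of these cells in the level of Col6a6 was not tested.

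Beside Col6a3, the 5 endothelial markers, one of which is Tek, summed to 18031 to 20035 in Sham-Veh and 19865 to 21412 in Sham-THZ1, and 15285 to 20330 for TAC-Veh and 14205 to 15502 for TAC-THZ1, and 4 of 5 fell with TAC under THZ1. The 6 pericyte and smooth muscle markers, which include Abcc9, summed to 30911 to 32755 in Sham-Veh and 30505 to 30721 in Sham-THZ1, and 19485 to 28120 for TAC-Veh and 22038 to 23439 for TAC-THZ1, with 4 of 6 called lower with TAC under vehicle (Rgs5, Abcc9, Myh11 and Kcnj8) and 4 of 6 under THZ1 (Rgs5, Abcc9, Myh11 and Pdgfrb). Abcc9, also among the genes most like Col6a6, had means of 9858 in Sham-Veh and 4235 in TAC-Veh and weighs on these sums. Whether it marks these cells in whole ventricle was not tested. Macrophage markers summed to 3807 to 4385 in Sham-Veh and 3538 to 4328 in Sham-THZ1, and 5362 to 6369 for TAC-Veh and 3924 to 7320 for TAC-THZ1. Epicardial markers summed to 131 to 323 over all libraries, adipocyte markers to at most 20.7 and skeletal muscle markers to at most 44.7. The part of these cells was not tested either. The shares of all genes called lower with TAC were 23.6% under vehicle and 12.8% under THZ1.

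The start regions of the chains were read from RefSeq (build GRCm38.p6), which holds 6 entries for the 5 chains. Windows of 250 bases before the start are printed for Col6a2 (chr10:76623631-76623880), Col6a3 (chr1:90843972-90844221) and Col6a6 (chr9:105828086-105828335), all on the minus strand, because these chains differed most in their response. Capitals mark the motifs searched on both strands, which were the GC box GGGCGG, the TATA box TATAAA, the AP-1 site TGANTCA and the Smad element CAGAC. No marked motifs overlap in the printed windows.
Col6a2: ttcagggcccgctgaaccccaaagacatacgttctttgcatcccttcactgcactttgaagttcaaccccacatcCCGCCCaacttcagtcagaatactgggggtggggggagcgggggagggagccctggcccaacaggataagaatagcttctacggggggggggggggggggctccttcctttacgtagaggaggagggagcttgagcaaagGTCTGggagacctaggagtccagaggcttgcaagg
Col6a3: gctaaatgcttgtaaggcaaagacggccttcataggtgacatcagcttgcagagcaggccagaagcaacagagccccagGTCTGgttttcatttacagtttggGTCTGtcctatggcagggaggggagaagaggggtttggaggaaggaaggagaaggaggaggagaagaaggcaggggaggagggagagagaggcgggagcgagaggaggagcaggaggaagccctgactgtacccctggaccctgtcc
Col6a6: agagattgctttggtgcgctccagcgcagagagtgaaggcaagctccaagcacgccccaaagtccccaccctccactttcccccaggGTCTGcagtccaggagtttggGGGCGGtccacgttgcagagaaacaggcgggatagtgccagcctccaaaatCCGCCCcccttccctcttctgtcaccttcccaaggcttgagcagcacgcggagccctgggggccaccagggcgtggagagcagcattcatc
The Col6a2 window held 1 GC box and 1 Smad element, the Col6a3 window 2 Smad elements, and the Col6a6 window 2 GC boxes and 1 Smad element. Of 32851 RefSeq promoter windows of this length, 32.7% held a GC box, 42.2% a Smad element, 12.4% the TATA box and 6.75% an AP-1 site. The TATA letters were in 0 of the 6 windows, and the AP-1 letters in that of Col6a1 alone, 90 bases before its start. The Col6a1 window is not printed because 124 of its bases lie in an annotated transcript. The second Col6a2 window, with 226 such bases, is left out for the same reason, and it held 3 GC boxes, 2 of them overlapping, and 0 Smad elements. The Col6a5 window held 1 GC box. The GC content was 64.4% for the second Col6a2 window, 62.4% for Col6a6, 59.2% for the printed Col6a2 window, 58.8% for Col6a5, 57.2% for Col6a3 and 56.0% for Col6a1, beside a median of 52.4% over all windows. These matches describe letters in a window and say nothing of binding.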

How the data were processed

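The deposited table holds a signal, the normalized count per gene and library of 16 mouse libraries. The authors aligned stranded single-end reads of 40 bases to mm9 with TopHat 2.1.1, counted GENCODE genes with HTSeq in reverse-stranded mode and divided by DESeq2 size factors. In each library 100% of values were whole multiples of a step (tolerance 0.001), so reads per gene, 21.4 to 35.8 M per library, were recovered. Precision is limited by 4 mice per group, and no batch was named in the labels.

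Groups came from the labels. The chains and lists were chosen with earlier results of these data known. limma 3.58.1 (R 4.3.3) was run on log2(normalized count + 1), 1 mean per group, eBayes with trend, over 13331 genes with at least 10 in at least 4 libraries, checked on simulated data. Fold changes on this scale understate changes of low genes. Levels per kilobase used the transcript with the longest coding sequence (GENCODE, NCBIM37). Named genes were the chains, per list up to 3 called genes with the largest differences for THZ1 in TAC and for TAC under THZ1 and the 2 highest per kilobase, and the 5 genes most like Col6a6 and Col6a3. Marker genes outside this rule were chosen after their values were seen. Results of 1 marker list are not reported here. edgeR 4.0.16 and DESeq2 1.42.0 were alternatives on recovered reads of 14 libraries. The other 2, TAC-Veh replicate 3 and TAC-THZ1 replicate 4, were left out because an automatic check did not accept a step so near 1. By direct division their values were whole multiples too. Other alternatives covered pseudocounts of 0.5 and 8, filters, scalings, weights, the block and leaving out each library.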

Additional observations from a re-analysis of the deposited data

Results flagged for a closer look

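The TAC effect on Col6a1 and on Col6a2 had opposite directions under vehicle and under THZ1. Every TAC-Veh mouse lay above every Sham-Veh mouse and every TAC-THZ1 mouse below every Sham-THZ1 mouse, and the TAC effect under THZ1 minus that under vehicle was -1.18 for Col6a1 and -1.22 for Col6a2 on the log2 scale. Fn1 was separated in the same way, with a difference of -1.94, although its TAC effect under THZ1 was not called (-0.64, adjusted p by limma 0.113). These 3 differences between the TAC effects were not tested. Opposite calls with TAC, higher under vehicle and lower under THZ1, also held for Col1a1, Col4a1, Col4a2, Itgb1, Mmp14 and Plod1. The pattern was thus not particular to Col6a1 and Col6a2. Several of these calls ended when a library was left out, and other genes, such as Bgn and Dcn, rose under both treatments.

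A library stood far from the other 3 of its group in 7 of 148 groups of values, and chance alone gives about 1 in 20. Col6a1 in Sham-THZ1 had a highest value of 3026 normalized counts, next to 2747. The ratio of Col6a6 to Col6a3 in TAC-THZ1 had a highest value of 23.8%, next to 11.4%. In TAC-THZ1, Cspg4 had a highest value of 759 (next 639) and Bgn a lowest value of 7384 (next 10843). In Sham-THZ1, Col4a1 had a highest value of 15353 (next 12406) and Col4a2 of 11845 (next 10175). P4ha3 in Sham-Veh had a highest value of 5.30, next to 0.884.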

How the results depend on the processing

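For the 4 chains, 13 other settings and 8 leave-outs per comparison turned no called direction. The call for TAC under THZ1 ended for Col6a2 under quantile normalization (-0.47) and for Col6a6 without the filter (-1.16), with the replicate block (-1.16, adjusted p by limma 0.0543), with DESeq2 (-1.06) and with limma on the same 14 libraries (-1.10), a setting added after the data were seen. It appeared for Col6a3 with the 2 groups alone (-0.53) and with array weights (-0.53). For THZ1 in TAC, the 2 groups alone ended the call of Col6a3 (-0.65), and Col6a6, given as a description, stood at 1.60 with an SE of 0.50. Leaving out 1 library gave -0.51 to -0.42 for Col6a1, -0.54 to -0.41 for Col6a2 and -1.35 to -1.05 for Col6a6 with TAC under THZ1, and -0.87 to -0.45 for Col6a3 with THZ1 in TAC. The replicate numbers did not pair the mice, as deviations of same-numbered libraries correlated at -0.43 to 0.12, and the block ended no other call of a chain.

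Counts over all genes moved more. With the fold threshold of the study added, TAC gave 619 higher and 449 lower, THZ1 in TAC 246 and 483, and TAC under THZ1 155 and 115. Array weights gave 2379 and 2632 for TAC under THZ1, 1310 and 1102 for THZ1 in TAC and 254 and 259 for THZ1 in sham. With the 2 groups alone the counts were 583 and 816 for THZ1 in TAC and 287 and 178 for THZ1 in sham, against 3 and 6 over all libraries, and DESeq2 gave 14 and 23 for the latter. For THZ1 in TAC, the count models called 2152 higher and 2168 lower (DESeq2) and 2058 and 2133 (edgeR). Leaving out 1 library gave 889 to 1556 higher and 1089 to 1699 lower for TAC under THZ1, and 1 to 3 higher and 2 to 9 lower for THZ1 in sham. The causes were not tested. No scaling moved the median of all genes by over 0.1. Depth limits Col6a5, at 0 to 9 reads per library, and Col6a6 in TAC-Veh, at 12 to 79 reads.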
